A study of Rattus norvegicus with 9 samples.

Results

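Long non-coding RNAs of rat liver were followed in 9 male Sprague-Dawley rats that fall into a normal control group, a DEN model group and a PZH administration group of 3 rats each. Diethylnitrosamine (DEN) is a liver carcinogen, and Pien-Tze-Huang (PZH) is a traditional Chinese medicine. The normal control group (N1, N3 and N12) carried the treatment tag NO and ate ordinary food. DEN model rats (M13, M17 and M24) belong to the arm injected intraperitoneally with 0.01% DEN every week for up to 16 weeks. PZH administration rats (G27, G28 and G42) received the same DEN course together with PZH. The PZH dose and the week of collection of the sequenced rats were not given in the sources used here. The M rats and the G rats carry the same treatment tag, PZH, so the groups rest on the letters of the rat names and on the 3 groups that the methods list. A supplementary gene list of the study carries its PZH and model headings over each other's rats, so the direction of every comparison of G with M rests on the rat names.

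Members were the rows annotated as lincRNA, lncRNA or antisense that held at least 10 counts in at least 3 of the 9 rats. Of 32883 rows in the table, 3149 were long non-coding, and 210 of these (6.67%) were members, 203 of them lincRNA and 7 antisense. The members were thus chosen by their measured counts in these same rats, and no test is made of their being expressed. A further 709 long non-coding rows had reads but fell short of the rule, and 2230 held 0 counts in every rat. Just outside the rule lay AC120486.10 and AABR07017145.1, whose third-highest count was 9. Just inside it lay AABR07032289.1 and AABR07019088.1, whose third-highest count was 10. At least 5 counts in 3 rats would have taken 307 rows, and at least 20 counts 148. The label of long non-coding RNA did not hold equally for all members: 31 carried a description after a protein or a protein-coding gene, so their reads may belong in part to that gene or its near-identical copies. Another 160 had no description, 17 were described as uncharacterized, and the remaining 2 were Tug1 and AA926063.

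Long non-coding RNAs are transcripts that are not translated into a known protein. Some act in the nucleus, where they build bodies such as paraspeckles, bind chromatin regulators such as Polycomb repressive complex 2, or silence neighbouring imprinted genes. Others mark active chromatin or read-through beside a protein-coding gene, and many are turned over by the nuclear exosome. In liver they are known for low abundance and for strong dependence on cell type and hormonal state.

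Only 12 members had their symbol in the RefSeq table, and 6 had a promoter sequence there. A promoter here is the 300 bases from 250 before to 50 after a RefSeq start on GRCr8. The promoters below belong to the 3 members with a RefSeq promoter and an adjusted p under 0.05 between DEN model and normal control, and to LOC102549726. That promoter was picked with its motifs and values known, because its core motifs were found and its level hardly differed between groups. Where RefSeq lists several starts, the first in the table is shown. Capitals mark the TATA box TATAAA, the CCAAT box or the GC box GGGCGG, searched on both strands.
Tug1, chr14:82750485-82750784, minus strand: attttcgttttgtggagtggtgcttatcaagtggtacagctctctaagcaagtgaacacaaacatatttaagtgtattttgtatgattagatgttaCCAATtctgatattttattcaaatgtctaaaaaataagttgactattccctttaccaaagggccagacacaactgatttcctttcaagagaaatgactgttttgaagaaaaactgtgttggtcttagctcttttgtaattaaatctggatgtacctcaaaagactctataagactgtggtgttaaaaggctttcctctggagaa
LOC102549869, chrX:30873680-30873979, minus strand: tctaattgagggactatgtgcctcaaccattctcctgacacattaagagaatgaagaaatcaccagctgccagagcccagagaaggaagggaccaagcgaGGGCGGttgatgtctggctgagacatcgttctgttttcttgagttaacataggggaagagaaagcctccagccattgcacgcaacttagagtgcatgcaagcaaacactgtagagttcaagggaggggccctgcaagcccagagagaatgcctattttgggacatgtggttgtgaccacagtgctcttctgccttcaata
LOC102548225, chr18:71602323-71602622, plus strand: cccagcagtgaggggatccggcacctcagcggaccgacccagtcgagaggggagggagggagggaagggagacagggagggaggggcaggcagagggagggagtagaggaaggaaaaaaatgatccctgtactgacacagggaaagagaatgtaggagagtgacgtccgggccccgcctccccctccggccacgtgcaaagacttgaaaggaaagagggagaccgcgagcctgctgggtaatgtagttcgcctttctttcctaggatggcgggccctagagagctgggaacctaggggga
LOC102549726, chr20:3880958-3881257, plus strand: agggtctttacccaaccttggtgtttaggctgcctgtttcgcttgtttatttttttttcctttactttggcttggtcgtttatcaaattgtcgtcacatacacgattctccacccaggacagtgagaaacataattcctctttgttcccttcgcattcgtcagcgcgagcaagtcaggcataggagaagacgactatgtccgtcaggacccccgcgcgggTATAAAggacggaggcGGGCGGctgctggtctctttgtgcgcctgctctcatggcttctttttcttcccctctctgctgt

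The Tug1 window held 1 CCAAT match and 1 CG dinucleotide, against a median of 7 CG dinucleotides over 33469 RefSeq promoters of the same length. The window of LOC102549869 held 1 GGGCGG match, and that of LOC102548225 held none of the 3 marked motifs but 13 CG dinucleotides. Motif content differed at starts not shown: a CCAAT match was found for LOC102548225 at chr18:71602651-71602950 and for LOC102549869 at chrX:30873632-30873931. LOC102549726 held a TATAAA match and a GGGCGG match with 17 CG dinucleotides. Among all RefSeq promoters, 14.2% held the TATA box letters, 37.5% the CCAAT box and 33.1% the GC box on either strand. The E-box CANNTG, which none of the capitals mark, was found 4 times in the Tug1 window, 2 times in that of LOC102549869 and 1 time in that of LOC102548225, and 72.1% of all promoters held it. The motifs do not overlap in letters, and a match describes the letters only. Of the members not shown, LOC102548818 (log2 difference 0.03 in DEN model, adjusted p = 0.964 by the edgeR test) held CCAAT matches but no TATAAA or GGGCGG match. LOC100910237 (-1.05, adjusted p = 0.435) held none of the 3 motifs and 27 CG dinucleotides. Motif content was not compared between members that differed and members that did not.

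Tug1 (taurine up-regulated 1), a conserved nuclear RNA known to associate with Polycomb complexes, was the only member whose symbol was on a list of named long non-coding RNAs of textbook standing. The match was by symbol alone, so a known RNA entered under a clone or LOC name could not be found by it. Per-rat values below are CPM (counts scaled to a library size corrected by TMM, edgeR's factor for composition) and are given in the order N1, N3, N12, then M13, M17, M24, then G27, G28, G42. Tug1 stood at 17.7, 19.5 and 12.1 CPM in the normal control rats, at 30.8, 29.5 and 35.4 CPM in the DEN model rats and at 12.7, 25.9 and 24.4 CPM in the PZH administration rats. All DEN model rats lay above all other rats, while the PZH administration rats ran from within the normal control range to above it. Tug1 was higher in DEN model than in normal control by 0.98 on the log2 scale (SE 0.21, adjusted p = 0.00634 by the quasi-likelihood test of edgeR, adjusted by Benjamini-Hochberg across the whole table). Its difference from DEN model to PZH administration was -0.59 (SE 0.27, adjusted p = 0.160), and from normal control to PZH administration 0.35 (adjusted p = 0.632). Morc2, the coding gene 1.51 kb away, which encodes a chromatin-remodelling ATPase, differed by 0.25 between DEN model and normal control (adjusted p = 0.395).

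LOC102549869 (uncharacterized) was measured at 0.156, 0.755 and 0.534 CPM in normal control, 2.29, 1.19 and 1.5 CPM in DEN model, and 0.939, 0.626 and 0.926 CPM in PZH administration. It rose in DEN model by 1.79 on the log2 scale (SE 0.59, adjusted p = 0.0356). LOC102548225 (uncharacterized) went the other way, from 1.56, 3.36 and 2.67 CPM in normal control to 0.892, 0.842 and 1.17 CPM in DEN model, with 1.75, 0.487 and 1.07 CPM in PZH administration. It fell by 1.37 on the log2 scale (SE 0.44, adjusted p = 0.0313). LOC102549726, which on the table's coordinates contains the rows of 2 small nucleolar RNAs, one of them described as C/D box 52, differed by 0.08 (adjusted p = 0.819). These genes were named after their values were seen, as were the others outside the naming rule that are marked so below.

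Libraries held 14922973 to 27161496 counts, so that 3 counts, the limit a count of 0 allows, corresponded to 0.125 to 0.252 CPM for counting error alone. TMM factors ran from 1.21 to 1.58 in DEN model, from 0.731 to 0.799 in normal control and from 0.863 to 0.941 in PZH administration. Markers of cell types were counted at adjusted p under 0.05 between DEN model and normal control. At that threshold 25.3% of all genes were higher and 20.5% lower. Of 11 hepatocyte markers 5 were lower and 0 higher (median log2 difference -1.48), and their sum ranged from 180378 to 200463 CPM in normal control, 39720 to 93131 CPM in DEN model and 150730 to 194108 CPM in PZH administration. Of 12 stellate cell and myofibroblast markers, 10 rose in DEN model, from sums of 284 to 410 CPM to sums of 1303 to 3653 CPM, with 733 to 865 CPM in PZH administration. Bile duct cell markers (10 of 10 rose) summed to 31.4 to 43.2, 300.2 to 834 and 105 to 143 CPM. Markers of dividing cells (8 of 9 rose) summed to 8.90 to 10.8, 137 to 216 and 37.5 to 97.2 CPM. Of 11 macrophage and Kupffer cell markers 3 were higher and 4 lower, the latter being Clec4f, Marco, Cd5l and Vsig4, and Trem2 was at 0 in normal control. Of 7 erythroid markers 3 were higher, and their sums overlapped, at 300 to 1093 CPM in normal control and 225 to 2076 CPM in DEN model. Of 9 endothelial markers 2 were higher and 3 lower. Lymphocyte markers were 5 higher and 1 lower among the 9 tested, and all 11 in the table summed to 27.2 to 51.5, 82.6 to 131 and 39.5 to 48.9 CPM. In bulk liver, fewer cells of a type and less RNA per cell cannot be told apart, and the part of these shifts in the results below was not tested.

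The members were of low abundance. Their mean FPKM (the values that the authors scaled by transcript length and library size) had a median of 1.24 and quartiles of 0.536 and 3.22, against a median of 5.70 for the 13932 protein-coding rows that met the same count rule. Of the 210 members, 88 lay under 1 FPKM and 19 above 10 FPKM, and the lowest stood at 0.103 FPKM. The median member held 29.7 counts a rat, against 251 for a protein-coding row. FPKM values carry no correction for composition, and Tug1 ran from 2.02 ± 0.42 FPKM in normal control to 7.29 ± 1.6 FPKM in DEN model (SD, n = 3), a wider gap than in CPM. Members lay on 21 chromosomes, with 31 on chromosome 1, 16 on chromosome 20, 15 on chromosome 3, 13 on chromosome X and 0 on chromosome Y. On the coordinates of the table, 21 overlapped a protein-coding gene, 66 lay within 10 kb of one and 123 lay farther away. The table has no strand, so reads of an antisense or overlapping member and of its partner cannot be told apart. That touches 34 members, which overlapped any other row.

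**Figure D1:**
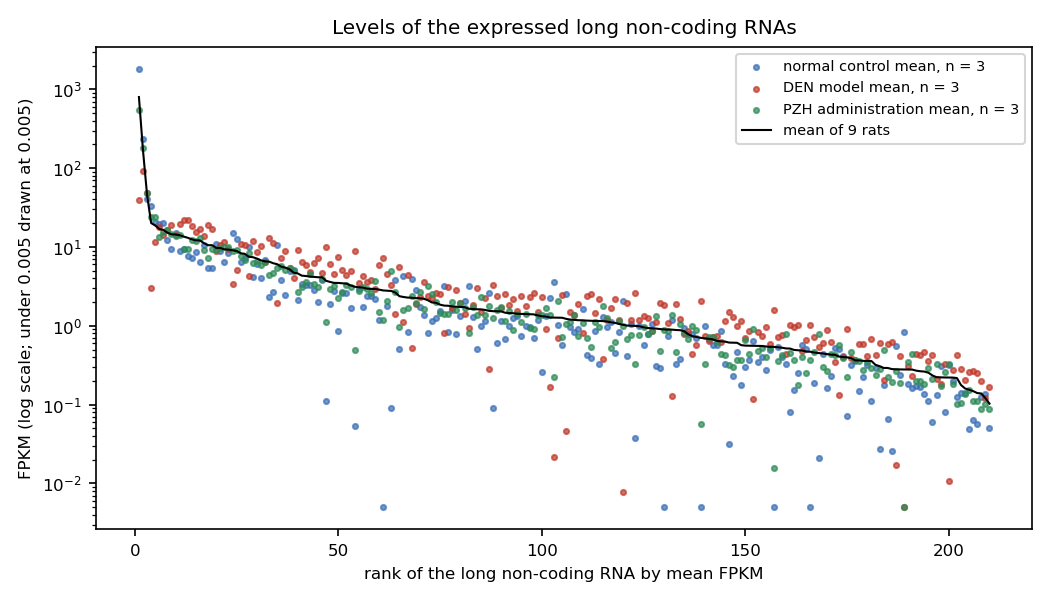
Mean FPKM (log scale) of the 210 expressed long non-coding RNAs in order of their mean over 9 rats, with the mean of each group of 3 rats as coloured points; group means under 0.005 are drawn at 0.005. The first stands at 798 FPKM, the second at 167 FPKM, and most lie between 0.1 and 10 FPKM.

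A single transcript dominated the class. AABR07004549.1 (chr1:147422779-147435897 in the authors' coordinates, whose build is not given in the sources used here) had a mean of 798 FPKM over the 9 rats. Group means were 1814 ± 763 FPKM in normal control, 39.6 ± 27.5 FPKM in DEN model and 540.1 ± 214 FPKM in PZH administration (SD, n = 3 each). It held 57, 67.6 and 46.9% of all member counts in the normal control rats, 1.64, 4.91 and 1.3% in the DEN model rats, and 40.3, 24.6 and 22.4% in the PZH administration rats. The 3 groups did not overlap in that share. In second place, AABR07024870.1 had a mean of 167 FPKM. LOC100912578, described as a stress-70 protein, mitochondrial-like, followed with 45.6 FPKM, a row whose reads may come from copies of that chaperone gene.

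Members together took 0.316, 0.424 and 0.264% of all counts in normal control, 0.172, 0.158 and 0.180% in DEN model, and 0.212, 0.188 and 0.197% in PZH administration. With AABR07004549.1 set aside, the order of the raw shares turned. The other members took 0.138% ± 0.00200 in normal control, 0.165% ± 0.0141 in DEN model and 0.140% ± 0.0131 in PZH administration (SD, n = 3). DEN model and normal control did not overlap on either measure (exact two-sided permutation test, p = 0.1, the smallest that 3 against 3 rats can give). Members were chosen by counts in these rats, some through 1 group alone, and AABR07004549.1 was set aside for its level in them. The test therefore serves as a description only. The shares are of raw totals and are not corrected for composition. TMM factors were 0.731 to 0.799 in normal control and 1.21 to 1.58 in DEN model. The order of the raw shares of the other members is therefore no order of their levels. Between 143 and 149 members had at least 10 counts in a normal control rat, 181 to 186 in a DEN model rat and 157 to 181 in a PZH administration rat. Every rat of the DEN model met that count in 161 members, every PZH administration rat in 132 and every normal control rat in 121, while 103 members met it in all 9 rats. This cut is in raw counts. Library sizes after TMM were larger in every DEN model rat and in G27 than in the other rats, so 10 counts stood for a lower CPM there. The share of all genes meeting the cut in each group was not taken, and these numbers do not compare how many RNAs were expressed.

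**Figure D2:**
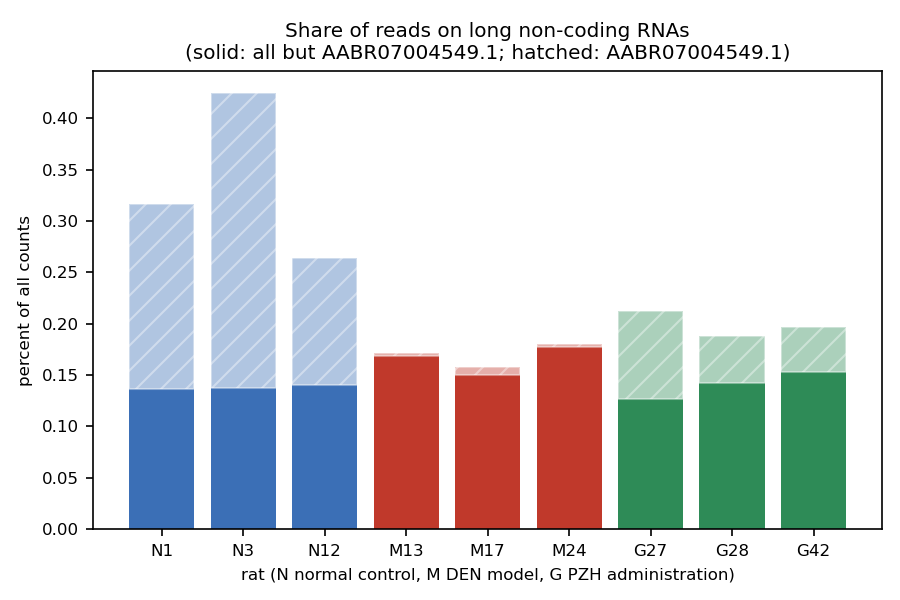
Percent of all counts on the 210 long non-coding RNAs in each of the 9 rats, with AABR07004549.1 hatched and all other members solid. The hatched part is 0.124 to 0.287% in the normal control rats and 0.00233 to 0.00774% in the DEN model rats, whereas the solid part has its highest mean in DEN model (0.165%), although G42 lies above M17. The shares are of raw totals without correction for composition, so their order is no order of levels.

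DEN model was first compared with normal control. Of the members, 189 had enough counts to be tested. The thresholds of the study decided what was called: a log2 fold change beyond 2 in either direction at P under 0.001 without adjustment. The 24 called members were 12.7% of those tested, and over all 14255 genes tested percent called was 12.3. Their directions were 8 higher and 16 lower, against 1256 higher (8.81% of genes tested) and 497 lower (3.49%) over all genes. With library totals in place of TMM factors 24 were higher and 9 lower, and over all genes the median log2 difference moved from 0.03 to 0.89. At adjusted p under 0.05, 68 members differed (36.0%, with 45.8% of all genes), 37 higher (25.3% of all genes) and 31 lower (20.5%). The groups did not overlap in 104 members (55.0%), against 58.8% of all genes.

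The median log2 fold change of the tested members was -0.03, with 0.03 over all genes. For 5 members that stood at 0 counts in one group the fold change is a lower bound. Using the bounds could not move the median, because each stays on the same side of it. Estimates for the members were wider: the median biological coefficient of variation was 0.328 and the median SE of a log2 fold change 0.459, against 0.245 and 0.271 over all genes. The SE includes counting error, and the median member held 29.7 counts a rat, against 251 for a protein-coding row. Members were not matched to other genes by abundance, so a wider spread between rats is not shown. Because 7 members met the count rule through DEN model rats alone and 1 through normal control rats alone, those had to differ, and their levels are given below as a description. Without members carried by 1 group alone, 20 of 181 were called, 5 higher and 15 lower. At adjusted p under 0.05, 62 of these 181 differed (34.3%), 32 higher and 30 lower, and groups did not overlap in 96 (53%). The 181 still include members that met the rule through 1 group and 1 further rat, such as AABR07072511.1 (normal control and G27) and AABR07001382.2 (DEN model and G28). Of the members with a protein's name, 1 of 30 was called, and of the antisense members, 1 of 6. Leaving out N1, N3 or N12 lowered the count of calls to 11, 15 and 13. In all 6 fits that each left out 1 rat, 10 of the 24 were called again: AABR07004549.1, AABR07004572.1, AABR07066188.1, AABR07069728.1, AABR07072511.1, AABR07052458.1, RGD1565989, AABR07008030.1, LOC102555023 and AABR07058158.1. AC119762.7, AABR07024870.1 and AABR07058498.1 were called in 1 of the 6, and no called member changed sign in any of them.

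**Figure D3:**
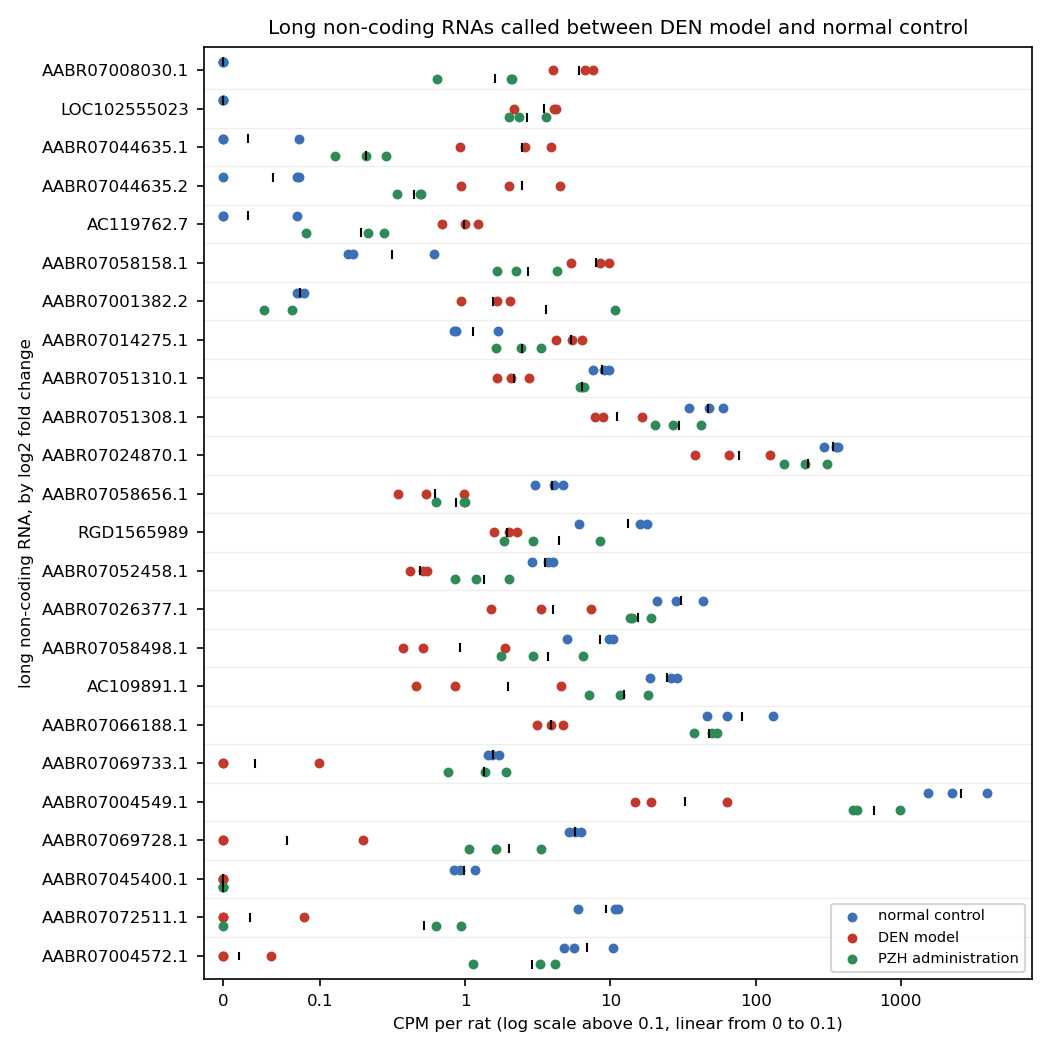
CPM per rat (log scale above 0.1, linear below) of the 24 long non-coding RNAs called between DEN model and normal control, with each rat a point and the group mean of 3 rats a black tick. The 16 lower in DEN model fill the bottom of the plot, and their PZH administration mean lies between the other means except in AABR07045400.1, which is at 0 in every DEN model and PZH administration rat.

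The members that were lower in the DEN model included the dominant transcript. AABR07004549.1 stood at 2268, 3926 and 1550 CPM in normal control, 19, 63.8 and 14.8 CPM in DEN model, and 991, 498 and 470.2 CPM in PZH administration. No rat of one group overlapped another. It fell by 6.30 on the log2 scale from normal control to DEN model (SE 0.74, adjusted p = 0.000444), and it was called in all 6 fits that left out a rat. Another called member lay 261 kb farther along the same chromosome. AABR07004572.1 (chr1:147696656-147700221) was at 5.62, 4.78 and 10.4 CPM in normal control, at 0, 0.0495 and 0 CPM in DEN model, and at 3.29, 4.18 and 1.14 CPM in PZH administration. A single read was counted for it over the 3 DEN model rats. The ratio of normal control to DEN model was 475 with a counting interval of 84.5 to 18816 (95%), and the fitted difference -8.29 (adjusted p = 0.000172).

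The coding gene nearest to AABR07004572.1, at 13.7 kb, was Cyp2c6v1, a cytochrome P450 of the Cyp2c family, which oxidises drugs and steroids in hepatocytes. Cyp2c6v1 was chosen after its values were seen, as were all neighbours farther than 10 kb. It fell by 2.88 on the log2 scale in DEN model (SE 0.54, adjusted p = 0.00338). How reads of the near-identical Cyp2c copies were counted is not given in the sources used here.

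A pair of called members lay 288 kb apart on chromosome 8. AABR07069728.1 (chr8:38128673-38130535) was measured at 6.33, 5.71 and 5.19 CPM in normal control, 0, 0.198 and 0 CPM in DEN model and 1.62, 3.34 and 1.07 CPM in PZH administration. It fell by 6.40 on the log2 scale (SE 0.81, adjusted p = 0.000597). AABR07069733.1 (chr8:38418274-38422399) went from 1.72, 1.43 and 1.53 CPM to 0, 0.0991 and 0 CPM, with 1.37, 0.766 and 1.92 CPM in PZH administration. Its ratio of normal control to DEN model was 52.8 (counting interval 14 to 446), resting on 2 reads in DEN model. Both were near absence in the DEN model rats and detected in every other rat. Beside the first, at 20.1 kb, lay LOC100360095, annotated as urinary protein 1-like, which ran at 767, 966 and 1977 CPM in normal control and 0, 2.33 and 0.333 CPM in DEN model. It fell by 10.47 on the log2 scale (adjusted p = 0.000479).

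AABR07072511.1 (chr16:49163529-49167325) stood at 11.3, 5.96 and 10.7 CPM in normal control, at 0, 0 and 0.0833 CPM in DEN model and at 0.939, 0.626 and 0 CPM in PZH administration. The ratio of normal control to DEN model was 319 (counting interval 87.6 to 2643). AABR07072511.1 met the count rule through the normal control rats and G27 only. Its being lower elsewhere therefore follows in part from how it was chosen. AABR07045400.1 (chr20:46316613-46322813) was counted only in the normal control rats, at 1.17, 0.923 and 0.840 CPM, and was at 0 in all DEN model and PZH administration rats. It is the member that met the count rule through the normal control rats alone, so its being lower elsewhere follows from how it was chosen. AABR07066188.1 (chr9:4621425-4624425) went from 63.1, 132 and 46.3 CPM in normal control to 3.10, 4.71 and 3.91 CPM in DEN model, with 37.9, 53.9 and 50.4 CPM in PZH administration. It fell by 4.35 on the log2 scale (SE 0.42, adjusted p = 0.000220). Its nearest coding gene, LOC100910526, annotated as a sulfotransferase 1C2-like protein and 29.9 kb away, fell by 2.94 (adjusted p = 0.0110).

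The other 9 members that were lower covered log2 differences from -3.65 to -2.0, and their names beyond the naming rule were taken because each is a call. AC109891.1 lay 0.534 kb from Apof, which encodes an apolipoprotein that inhibits cholesteryl ester transfer, and 2.03 kb from Apon, another apolipoprotein gene. AABR07058498.1 lay 0.092 kb from Tmprss6, the hepatic protease that restrains hepcidin. AABR07026377.1 lay 14.7 kb from Slc25a15, the mitochondrial ornithine carrier of the urea cycle. AABR07058656.1 lay 3.53 kb from Pim3, a serine/threonine kinase, and RGD1565989, the 1 called member with a protein's description, overlapped Larp1b, an RNA-binding protein gene.

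AC109891.1 was at 18.7, 28.9 and 26.2 CPM in normal control, 0.850, 4.61 and 0.458 CPM in DEN model and 7.08, 11.6 and 18.3 CPM in PZH administration. In DEN model against normal control Apof fell by 2.62 (adjusted p = 0.0122), Apon by 3.81 (adjusted p = 0.000383), Tmprss6 by 2.09 (adjusted p = 0.00128), Slc25a15 by 2.41 (adjusted p = 0.00320), Pim3 by 3.0 (adjusted p = 0.000176) and Larp1b by 1.75 (adjusted p = 0.000550). Il2rb, a cytokine receptor gene 4.76 kb from AABR07058498.1, differed by 0.84 (adjusted p = 0.128), and Stat2, a signalling gene 2.40 kb from AC109891.1, fell by 0.82 (adjusted p = 0.0191). The remaining members of this group were AABR07052458.1, AABR07024870.1 and the mutually overlapping pair AABR07051308.1 and AABR07051310.1, which share genomic positions and may share reads. AABR07024870.1, the second most abundant member, stood at 372, 295 and 360.1 CPM in normal control, 38.4, 125 and 66.1 CPM in DEN model and 311, 218 and 156 CPM in PZH administration. It fell by 2.14 (SE 0.40, adjusted p = 0.00326), while Map1s, a microtubule-associated protein gene 31.3 kb away, rose by 2.53 (adjusted p = 0.00144).

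Among the members that were higher in DEN model, AABR07008030.1 (chr2:39619209-39630099) was at 0 in every normal control rat, at 6.71, 4.01 and 7.58 CPM in DEN model and at 0.640, 2.09 and 2.07 CPM in PZH administration. Against the floor of 3 counts per library it was at least 25.6-fold higher in DEN model. Its nearest coding gene, Ercc8, lay 147 kb away and differed by -0.02 (adjusted p = 0.963). LOC102555023 (chr18:12637441-12641158), the called antisense member, was likewise at 0 in every normal control rat and at 4.25, 2.18 and 4.08 CPM in DEN model, at least 14.7-fold higher. In PZH administration it remained at 2.01, 2.37 and 3.63 CPM, overlapping the DEN model range. It overlaps Klhl14, a Kelch-family gene, which was at 0 in every normal control rat, at 14.7, 9.01 and 13.7 CPM in DEN model and at 1.92, 7.52 and 6.48 CPM in PZH administration. Without strand the reads of the pair cannot be assigned to one or the other.

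The neighbouring rows AABR07044635.1 and AABR07044635.2 (chr20:14045726-14046536 and chr20:14046860-14047227), with 0.324 kb between them, behaved alike. AABR07044635.1 ran at 0.0781, 0 and 0 CPM in normal control, 3.91, 2.58 and 0.916 CPM in DEN model and 0.128, 0.209 and 0.285 CPM in PZH administration. AABR07044635.2 ran at 0.0781, 0 and 0.0763 CPM, then 4.50, 0.941 and 2.0 CPM, then 0.341, 0.487 and 0.499 CPM. Both met the count rule through the DEN model rats alone, so their being higher there follows from how they were chosen, and normal control held 1 or 2 reads of each. Between 3.24 and 3.93 kb away lay Lrrc75b, a leucine-rich repeat gene, which rose by 3.93 (SE 0.21, adjusted p = 2.1e-05). Ggt1, the gamma-glutamyltransferase that cleaves extracellular glutathione and marks altered hepatocytes and bile duct cells, lay 20.7 kb from the first and rose by 6.48 (adjusted p = 0.000152).

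AC119762.7 was at 0, 0 and 0.0763 CPM in normal control, 1.23, 0.693 and 0.999 CPM in DEN model and 0.0853, 0.278 and 0.214 CPM in PZH administration. It lay 0.761 kb from Rab25, an epithelial GTPase gene, which rose by 5.6 (adjusted p = 0.000736). AC119762.7 too met the count rule through the DEN model rats alone. AABR07058158.1 spans 221 kb of chromosome 7 at a distance of 57.6 kb from Myc, the growth-promoting transcription factor. It went from 0.156, 0.168 and 0.611 CPM in normal control to 8.54, 5.35 and 9.87 CPM in DEN model, with 1.66, 2.23 and 4.27 CPM in PZH administration. The rise was 4.63 on the log2 scale (SE 0.54, adjusted p = 0.000409), held in all 6 fits that left out a rat, and Myc rose by 0.88 (adjusted p = 0.0162). AABR07014275.1 rose by 2.25 (SE 0.40, adjusted p = 0.00248).

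AABR07001382.2, which lies inside the estrogen receptor gene Esr1, was split by 1 rat. It stood at 0.0781, 0.0839 and 0.0763 CPM in normal control and 1.66, 0.941 and 2.04 CPM in DEN model, a ratio of 19.9 (counting interval 6.63 to 98.1). It met the count rule through the DEN model rats and G28 only. Its being higher in DEN model than in normal control therefore follows in part from how it was chosen. Among the PZH administration rats G27 and G42 were at 0.0427 and 0.0712 CPM, whereas G28 was at 10.8 CPM, the highest of all 9 rats. Its difference from DEN model to PZH administration was 1.23 (adjusted p = 0.576) with G28 and -4.66 without it. Esr1 itself fell by 3.28 in DEN model (adjusted p = 0.00684), opposite to the member it contains.

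**Figure D4:**
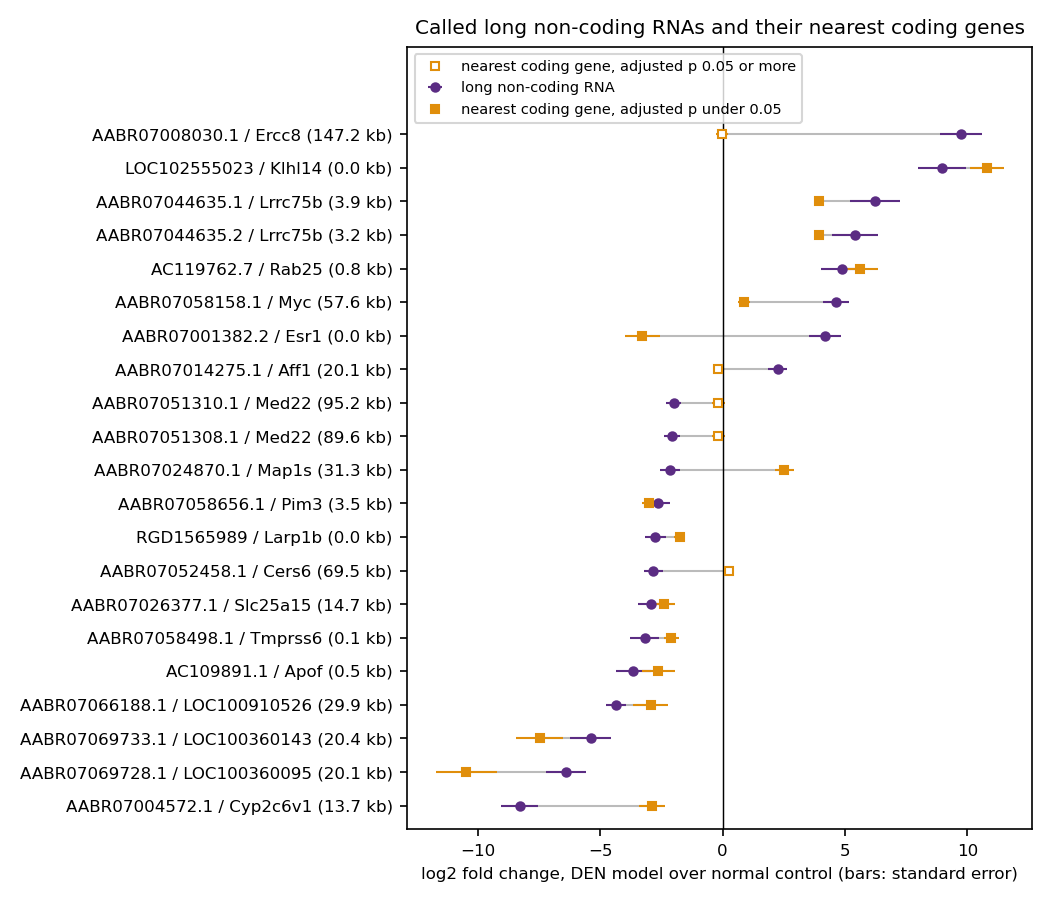
Log2 fold change of DEN model over normal control (bars are standard errors) for the 21 called long non-coding RNAs whose nearest protein-coding gene was tested, each paired with that gene and its distance in kb. Filled squares are neighbours with adjusted p under 0.05: 14 lie on the same side of 0 as their RNA, and those of AABR07001382.2 and AABR07024870.1 lie on the other side.

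In all, 21 called members had a tested nearest coding gene. The neighbour passed adjusted p under 0.05 in 16 of these pairs, in 14 with the same direction as the member and in 2 with the opposite one, and 45.8% of all genes tested passed that threshold. Among all pairs in which member and neighbour both passed it, the direction was shared in 3 of 5 overlapping pairs, 8 of 11 within 10 kb and 18 of 21 farther away. Some pairs share a neighbour, overlapping pairs may share reads, and 3 of the 21 members are those carried by the DEN model rats alone. How often unrelated genes that both pass the threshold share a direction was not taken. The counts of pairs are therefore a description, and a link between member and neighbour was not tested. Of the 10 most abundant members, LOC100912578 (adjusted p = 0.0715), AABR07072236.1 (adjusted p = 0.0722) and AABR07053749.2 (adjusted p = 0.531) did not pass that threshold in DEN model against normal control. LOC100912578 differed by -0.59 on the TMM scale and by 0.26 with library totals, and AABR07072236.1 by -0.46 and 0.41, so the sign depended on the scaling. AABR07017208.2 fell by 1.38 (SE 0.19, adjusted p = 0.000796), AABR07051507.1 by 1.69 (adjusted p = 0.00725), AABR07033564.1 by 0.98 (adjusted p = 0.0127) and LOC103689920 by 0.95 (adjusted p = 0.0114). These 7 rows are mostly unnamed transcripts with no description, the exceptions being the stress-70-like row and the uncharacterized LOC103689920. Coding genes overlapping or within 10 kb of them were Gramd1c (a sterol-transfer protein gene that fell by 2.09, adjusted p = 0.000374, beside AABR07072236.1), Cntrl (a centriole gene, 0.76, adjusted p = 0.0114, beside AABR07051507.1), LOC361016 (0 in every normal control rat and 0.722, 0.644 and 1.58 CPM in DEN model, beside AABR07017208.2), Trappc2b (-0.86, adjusted p = 0.204, beside LOC103689920) and AABR07053749.1. The last lay 7.14 kb from AABR07053749.2 and was not tested. Its means were 0.215 CPM in normal control, 0.114 CPM in DEN model and 0.118 CPM in PZH administration.

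PZH administration was then compared with DEN model, both groups having received DEN. These comparisons share the DEN model rats, so their values stand side by side and are not independent. Of 186 members tested, 6 were called (3.23%, with percent called 2.43 over all genes), 5 higher (1.08% of all genes) and 1 lower (1.35%). With library totals 11 were called, 4 higher and 7 lower. At adjusted p under 0.05, 27 members differed (14.5%, with 19.1% of all genes), 16 higher (8.72% of all genes) and 11 lower (10.3%). Groups did not overlap in 59 members (31.7%), against 40.8% of all genes, and the median log2 fold change was 0.18, with 0.01 over all genes. These counts include members carried by 1 group alone, whose difference follows from how they were chosen. Without them 22 of 179 differed at adjusted p under 0.05 (12.3%), 16 higher and 6 lower, and groups did not overlap in 52 (29.1%). Leaving out G27, G42 or M13 lowered the calls to 3, and leaving out M17 raised them to 11. AABR07004549.1, AABR07004572.1 and AABR07066188.1 were called in all 6 fits that left out a rat.

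The 5 that rose were AABR07004572.1, AABR07069733.1, AABR07004549.1, AABR07066188.1 and AC115369.1, of which the first 4 were also among those lower in DEN model than in normal control. AABR07004549.1 rose by 4.36 (SE 0.65, adjusted p = 0.00981) and AABR07066188.1 by 3.62 (SE 0.24, adjusted p = 0.000790). AABR07004572.1, on its 1 DEN model read, had a ratio of PZH administration to DEN model of 199.9 (counting interval 35.3 to 7947), and AABR07069733.1 one of 45.7 (12.2 to 385). AC115369.1 (chr13:97919925-97923006) was at 3.75, 1.34 and 2.75 CPM in normal control, 0.212, 0.495 and 0.541 CPM in DEN model and 3.29, 1.95 and 3.85 CPM in PZH administration. It rose by 2.87 (SE 0.50, adjusted p = 0.0131), a call lost in 5 of the 6 fits that left out a rat, and Cnst, 6.84 kb away, which encodes a connexin-recycling protein, differed by 0.43 (adjusted p = 0.295). The 1 member that was lower, AABR07044635.1, met the count rule through the DEN model rats alone and so had to be lower. Without members carried by 1 group alone, 5 of 179 were called, all of them higher.

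Their neighbours in the same comparison were LOC100360143, annotated beside AABR07069733.1 and not tested here, Cyp2c6v1 (a rise of 2.0, adjusted p = 0.0267), LOC100910526 (2.87, adjusted p = 0.0236) and Lrrc75b (a fall of 0.87, adjusted p = 0.0398). Of the 4 called members with a tested nearest coding gene, 3 had a neighbour past adjusted p under 0.05, all in the member's direction. Over all genes tested 19.1% passed that threshold. Among these 3 members is AABR07044635.1, whose direction followed from how it was chosen. Members past adjusted p under 0.05 but not called included AABR07058158.1, the long row near Myc, which fell by 1.54 (SE 0.41, adjusted p = 0.0355). AABR07008030.1 fell by 1.94 (SE 0.48, adjusted p = 0.0294), and AABR07069728.1 rose by 4.93 (SE 1.01, adjusted p = 0.0176). LOC102555023, the antisense row of Klhl14, differed by -0.38 (SE 0.39, adjusted p = 0.522).

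PZH administration was finally compared with normal control, which shares rats with both comparisons above. Of 156 members tested, 4 were called (2.56%, with percent called 2.32 over all genes), 1 higher (2.16% of all genes) and 3 lower (0.165%). With library totals the split was 2 higher and 2 lower. At adjusted p under 0.05 the members were 7 (4.49%, with 5.21% of all genes), 3 higher (4.07% of all genes) and 4 lower (1.15%), and groups did not overlap in 26 (16.7%, with 24.2% of all genes). The median log2 fold change was 0.02, with -0.02 over all genes. Without G28 a single call was left, and without N1 or N3, 2.

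LOC102555023 was higher in PZH administration than in normal control, at least 11.2-fold against the floor of 3 counts per library (adjusted p = 0.00729), and it was the 1 member of this comparison called in all 6 fits that left out a rat. AABR07045400.1, at 0 in every PZH administration rat, is the member carried by the normal control rats alone and had to be lower. Without members carried by 1 group alone, 3 of 154 were called, 1 higher and 2 lower. Of these 154, 6 differed at adjusted p under 0.05 (3.9%), 3 higher and 3 lower, and groups did not overlap in 24 (15.6%). The 2 lower calls include AABR07072511.1, which met the count rule through the normal control rats and G27 only. AABR07072511.1 fell by 4.03 (SE 0.70, adjusted p = 0.0147), and AABR07058656.1, the row beside Pim3, by 2.17 (SE 0.41, adjusted p = 0.0191). AABR07058656.1 was at 3.05, 4.70 and 4.12 CPM in normal control, 0.977, 0.347 and 0.541 CPM in DEN model and 0.981, 0.626 and 0.997 CPM in PZH administration. Its PZH administration and DEN model ranges overlapped. Pim3 was lower than in normal control by -1.54 on the log2 scale (adjusted p = 0.0142). AABR07004549.1 had a difference of -1.99 from normal control (SE 0.43, adjusted p = 0.0330), and with an unadjusted P of 0.00127 it missed both thresholds.

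Outside the naming rule, 3 members were chosen after their values were seen. AABR07038983.1 (chrX:65367912-65368639) overlaps the row of Mir223, the myeloid microRNA, and lies 2.21 kb from Vsig4, a complement receptor gene of Kupffer cells. It was at 0.234, 1.26 and 0 CPM in normal control, 3.02, 1.93 and 3.50 CPM in DEN model and 0.555, 1.25 and 0.499 CPM in PZH administration. It rose by 2.53 in DEN model (SE 0.88, adjusted p = 0.0434) and fell by 1.86 from DEN model to PZH administration (SE 0.48, adjusted p = 0.0331). Vsig4 went the other way in DEN model, falling by 1.54 (adjusted p = 0.0128). LOC102551356 was at 0 in every normal control rat, at 5.01, 0.644 and 3.87 CPM in DEN model and at 0.0853, 0.348 and 0 CPM in PZH administration. Ly6l, annotated after lymphocyte antigen 6 family member L, was carried mainly by M24, at 3.91 CPM, with 0.467 and 0.594 CPM in M13 and M17 and 0 in normal control. Both met the count rule through the DEN model rats alone, so their levels are a description.

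Coding genes of the machinery with which long non-coding RNAs work were read from lists. Over 15 paraspeckle protein genes 0 were called in DEN model against normal control (2 higher at adjusted p under 0.05), with a median log2 fold change of 0.08. Over 12 genes of Polycomb repressive complex 2 and its cofactors the median was -0.07 and 1 was called lower, Phf19, a chromatin reader that brings the complex to its sites, by -2.57 (3 higher and 2 lower at adjusted p under 0.05). Over 18 genes of the nuclear exosome and its adaptors 0 were called (1 higher and 2 lower at adjusted p under 0.05), with a median of -0.01. Of 16 imprinted coding genes that lie beside known long non-coding RNAs, 2 were called higher, the potassium channel gene Kcnq1 (3.4) and the hydrolase-like gene Mest (2.09), the median was 1.28, and 7 were higher and 1 lower at adjusted p under 0.05. Igf2, among these 7, was high in M24 alone (0.892, 3.32 and 61.0 CPM in M13, M17 and M24). From DEN model to PZH administration the medians were -0.04, -0.07, 0.03 and -0.62 in the same order, with 1 call, Snrpn, a splicing protein gene, at -3.02. From normal control to PZH administration they were -0.08, 0.00481, 0.03 and 0.03, with Phf19 called at -2.87. The corresponding medians over all genes were 0.03, 0.01 and -0.02, and the shares called 12.3, 2.43 and 2.32%. At adjusted p under 0.05, 25.3% of all genes were higher and 20.5% lower in DEN model than in normal control.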

How the data were processed

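Liver RNA of 9 rats was sequenced by the authors as mRNA, 1 library per rat; whether RNA without a poly(A) tail was kept is not given in the sources used here. The deposited counts are unnormalized read numbers, whole for each gene in each rat. The deposited FPKM values are the authors' scaling by length and library size, without correction for composition. The submitters' notes name fastp, HISAT2 2.1.0, StringTie 1.3.3b and edgeR 3.30.3; genome build, annotation and strand setting are not given in the sources used here. Deposited columns of the authors' own comparisons (fold changes, P-values, Q-values) were not used.

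Counts were tested in R 4.3.3 with edgeR 4.0.16 (filterByExpr, TMM, glmQLFit, glmQLFTest) with the 6 rats that a comparison concerns and no covariate. P-values were adjusted by Benjamini-Hochberg across every gene in the fit. The procedure was tested on simulated data with a single dispersion and with changes set only in genes of higher counts. That test does not cover changes in members of low count. Where 1 to 3 reads were counted in a group, its ratio carries a 95% counting interval, and the interval covers counting error only. Tables were handled with pandas 2.3.3, numpy 2.4.6 and scipy 1.17.1. Alternatives were DESeq2 1.42.0, library totals, other filters and thresholds, all groups in one fit, thinning of the deepest library, leaving out overlapping members and leaving out each rat.

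Named members were the known long non-coding RNAs, the 10 highest by mean FPKM, and, by log2 fold change among calls without overlap of groups, the 6 highest and 6 lowest (3 and 3 for PZH administration against normal control), with the coding gene overlapping or nearest within 10 kb; exceptions are marked. Members and lists were chosen with earlier results of these data known. Promoter sequences are from RefSeq, assembly GRCr8.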

Additional observations from a re-analysis of the deposited data

How the results depend on the processing

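Log2 fold changes of the called members kept their sign, in the comparison where they were called, in every fit that left out 1 rat. For DEN model against normal control, 24 members were called. Requiring at least 10 counts in every rat, which tested fewer members, gave 8, and adjusted p under 0.05 with no fold threshold gave 68. Leaving out 1 rat gave 11 to 26 calls. DESeq2 gave 32 and library totals 33. For PZH administration against DEN model, 6 were called. DESeq2 gave 12, library totals 11, at least 10 counts in every rat 2, adjusted p under 0.05 with the fold threshold 13 and without it 27, and leaving out 1 rat 3 to 11. For PZH administration against normal control, 4 were called. At least 10 counts in every rat gave 0 by edgeR (17 members at an unadjusted p under 0.05; DESeq2 without that filter called 5), all 3 groups in one fit 7, adjusted p alone 7, and leaving out 1 rat 1 to 6. Requiring at least 10 counts in all 9 rats left 103 of the 210 members. Apart from the fewer members tested under the stricter filter, the cause of these shifts was not tested.

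No paired analysis was possible because the groups share no replicate numbers. Library totals moved the median of all genes from 0.01 to -0.67 for PZH administration against DEN model and from -0.02 to 0.21 against normal control. The signs that turned belonged to values that were not called, and the cause was not tested. With library totals, AABR07072236.1 was at 0.41 and LOC100912578 at 0.26 for DEN model against normal control. For PZH administration against DEN model they gave LOC103689920 -0.070, LOC102548225 -0.46, AABR07053749.2 -0.38, AABR07058656.1 -0.20, LOC100912578 -0.025 and AABR07033564.1 -0.43. Against normal control they gave AABR07051507.1 0.18, AABR07069733.1 0.025, LOC100912578 0.23 and LOC100910526 0.12, and at least 10 counts in every rat gave LOC100912578 0.027. Leaving out 1 rat also turned the sign of some values, given here as their range over these fits: LOC102549726 (-0.10 to 0.22) for DEN model against normal control, and AABR07001382.2 (-4.66 to 1.83), AABR07053749.2 (-0.22 to 0.56), LOC102548225 (-0.30 to 0.59) and Myc (-0.43 to 0.021) for PZH administration against DEN model. Against normal control they were AABR07051507.1 (-0.27 to 0.30), AABR07053749.2 (-0.079 to 0.69), AABR07069733.1 (-0.52 to 0.076), AABR07072236.1 (-0.25 to 0.46), AC115369.1 (-0.072 to 0.55), LOC100910526 (-0.48 to 0.34), LOC100912578 (-0.13 to 0.15) and Morc2 (-0.033 to 0.33). Depth limits members near the floor of 3 counts, where 1 or 2 reads set a ratio.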
